A study of Homo sapiens and Mus musculus with 6 samples.

Results

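The clustered protocadherin genes were followed through the Promoter Capture Hi-C calls of a human and a mouse cell type. A call was kept when the fragment at either end carried a gene symbol that starts with PCDHA, PCDHB or PCDHG, whichever case the letters had. In GM12878 cells 739 of 92929 calls met this rule, and in mouse embryonic stem cells (mESCs) 271 of 101841 did. They came from 36 member fragments among the 16616 baited fragments listed in GM12878 and from 20 among 17157 in mESCs. The rule used gene names only, so scores, read counts and distances were free to vary. Partners were not wholly free, because a call kept through its other end alone has a baited fragment at both ends.

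GM12878 is a human lymphoblastoid cell line, given as B-Lymphocyte in its labels, and was sampled in 3 biological replicates. The mESCs were of line J1, strain 129S4/SvJae, grown on irradiated embryonic fibroblasts that were reduced by repeated plating before harvest, and were sampled in 2 biological replicates. Neither cell type was treated. In Promoter Capture Hi-C, formaldehyde-fixed chromatin is cut with HindIII and religated, and ligation products that hold a promoter fragment, the bait, are pulled out with RNA probes. CHiCAGO, the caller behind the lists, scores each pair of a bait and an other end against a background that falls with distance, and pairs with a score of at least 5 were listed. Each cell type has 1 list of calls made on its pooled replicates. No spread between replicates can therefore be given, no test between the cell types was made, and cell type, species, bait design and depth cannot be told apart.

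Clustered protocadherins are cell adhesion proteins known mainly from neurons, where each cell uses its own combination of isoforms. Their genes stand in a row of alpha, beta and gamma clusters. Alpha and gamma genes each join a variable first exon, with a promoter of its own, to constant exons shared by the cluster, while each beta gene is a single exon. Promoter choice depends on CTCF and cohesin and on distal enhancers, and most variable promoters hold a short conserved element around the bases CGCT. The last variable exons of the alpha and gamma clusters, the C-type isoforms, are regulated differently from the rest. Expression was not measured in this series.

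Stretches of 40 bases around a CGCT before the start are shown for members that carry many or high-scoring calls, to show what the promoters of a cluster share, and, last and for contrast, for the C-type members PCDHAC2 and PCDHGC3. They were read from the RefSeq promoter table (GRCh38.p14, human chromosome 5, plus strand), 5′ to 3′, with the CGCT core in capitals.
PCDHA2: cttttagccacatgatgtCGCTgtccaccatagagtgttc
PCDHA5: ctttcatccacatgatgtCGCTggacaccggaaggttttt
PCDHB7: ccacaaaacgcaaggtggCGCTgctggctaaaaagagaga
PCDHB16: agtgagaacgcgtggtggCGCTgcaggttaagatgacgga
PCDHB9: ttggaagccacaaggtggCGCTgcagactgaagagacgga
PCDHGA3: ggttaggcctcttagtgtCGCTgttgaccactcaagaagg
PCDHGA10: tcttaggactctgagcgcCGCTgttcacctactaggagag
PCDHAC2: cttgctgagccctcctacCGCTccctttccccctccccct
PCDHGC3: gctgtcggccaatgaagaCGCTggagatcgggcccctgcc
The first base of the core lies 55 bases before the annotated start in PCDHA2 and 61 in PCDHB16, and 46 in PCDHGA3. PCDHAC2 and PCDHGC3 hold the letters CGCT but none of the longer strings described next, so their stretches are not shown to be the conserved element. The same is true of PCDHGA3, so these strings do not part the C-type stretches from all the others printed.

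The table held 47 member promoters among 27305 genes, each from 250 bases before to 50 bases after the start. CGCT, searched on both strands, occurred in the 100 bases before the start in 12 of 13 alpha, 13 of 14 beta and 19 of 20 gamma promoters, against 48.8% of all promoters. The letters next to the core differed between the clusters. GATGTCGCT was present in 9 of 13 alpha promoters and in no beta or gamma promoter, against 0.128% of all, anywhere in the window on either strand. GGTGGCGCT was present in 13 of 14 beta promoters, all except PCDHB1, against 0.619% of all. GCGCCGCTG was present in 10 of 20 gamma promoters, against 1.59% of all. These 9-letter strings were the most shared in each cluster and were picked from these promoters, so their counts describe the clusters and test nothing, and all 3 overlap the core.

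In GM12878 the member fragments lie on human chromosome 5 (hg19), 8 in the alpha, 14 in the beta and 14 in the gamma cluster. In mESCs they lie on mouse chromosome 18 (mm9), 2 in the alpha, 17 in the beta and 1 in the gamma cluster. The uneven mouse numbers go with the mouse gene models. The model named Pcdha11 spans the alpha cluster and the model named Pcdhgc5 spans the gamma cluster, so the baits that carry these names sit at the first start of each cluster and most single alpha and gamma promoters of the mouse carry no member symbol. The alpha and gamma results of mESCs rest on 2 baits and 1 bait, and the mouse bait named Pcdhgc5 is no equivalent of the human C-type fragment PCDHGC5. In GM12878 48 of 60 annotated member genes had their symbol on a member fragment. Some human member starts, such as those of PCDHAC1 and PCDHGA4, lie on fragments without a symbol, counted below as unbaited. Calls with these fragments are not counted as calls between members.

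Every member call was *cis*-chromosomal, and the longest spanned 890 kb in GM12878, between PCDHGC4 and the APBB3 fragment, and 822 kb in mESCs, from Pcdha11. The median distance was 190 kb in GM12878 (95% order-statistic interval 173 to 206), against 174 kb for all its calls. It was 192 kb in mESCs (177 to 215), against 139 kb for all calls. These intervals and those below reflect counting error alone, and nearby fragments do not give independent calls. By the median, alpha calls reached farthest. A call between clusters counts under each of them here. The alpha median was 386 kb in GM12878, against 185 kb for beta and 175 kb for gamma calls. In mESCs it was 333 kb for alpha, 195 kb for beta and 182 kb for gamma calls. For calls from member baits to unbaited fragments, GM12878 medians were 321 kb (alpha), 149 kb (beta) and 139 kb (gamma). In mESCs they were 212, 249 and 172 kb, so there the alpha calls were not the longest. Of the GM12878 alpha calls 73.8% (68.3 to 78.7, Wilson 95%) spanned over 300 kb, and of all GM12878 calls 25.3% did.

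Member fragments mostly called other baited fragments. In GM12878 469 of the 739 calls were bait-to-bait, 63.5% (59.9 to 66.9), against 29.4% of all calls, and in mESCs 167 of 271 were, 61.6% (55.7 to 67.2), against 36.3%. A call kept through its other end alone is bait-to-bait by the rule. For calls made by member baits the GM12878 shares were 67.3% (alpha), 59.2% (beta) and 63.8% (gamma). In mESCs they were 45.8%, 58.8% and 40.0%. The closeness of baits at this locus was not taken into account. A member stood at both ends of 407 calls in GM12878, 55.1% (51.5 to 58.6), and of 116 calls in mESCs, 42.8% (37.1 to 48.8). Scores were not high in general. In GM12878 18.1% of member calls had a score of at least 10, against 16.3% of all calls, and in mESCs 10.7% did, against 16.9%.

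Of the 618 pairs that the 36 GM12878 member fragments can form, neighbouring fragments left out, 284 were called, 46.0% (42.1 to 49.9). Of the 187 pairs of the 20 mESC fragments 92 were called, 49.2% (42.1 to 56.3). In GM12878 the share was 64.0% within the beta cluster (57 of 89 pairs) and 63.4% between alpha and beta (71 of 112), although the alpha and beta fragments lay a median of 344 kb apart and the beta fragments 51.6 kb. It was 54.5% within alpha (12 of 22) and 46.0% within gamma (40 of 87). The lowest shares were 33.9% between alpha and gamma (38 of 112) and 33.7% between beta and gamma (66 of 196). The interval between alpha and beta, 54.2 to 71.7, did not overlap the one between beta and gamma, 27.4 to 40.5. The pairs of gamma with alpha or beta include those of 3 C-type gamma fragments, none of which was called. For the other 11 gamma fragments the share with alpha and beta together, PCDHAC2 left out, was 44.6% (103 of 231). In mESCs 65 of 133 beta pairs were called, 48.9%, as were 16 of 34 pairs between alpha and beta, 10 of 17 between beta and Pcdhgc5 and 0 of 2 between alpha and Pcdhgc5.

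**Figure D1:**
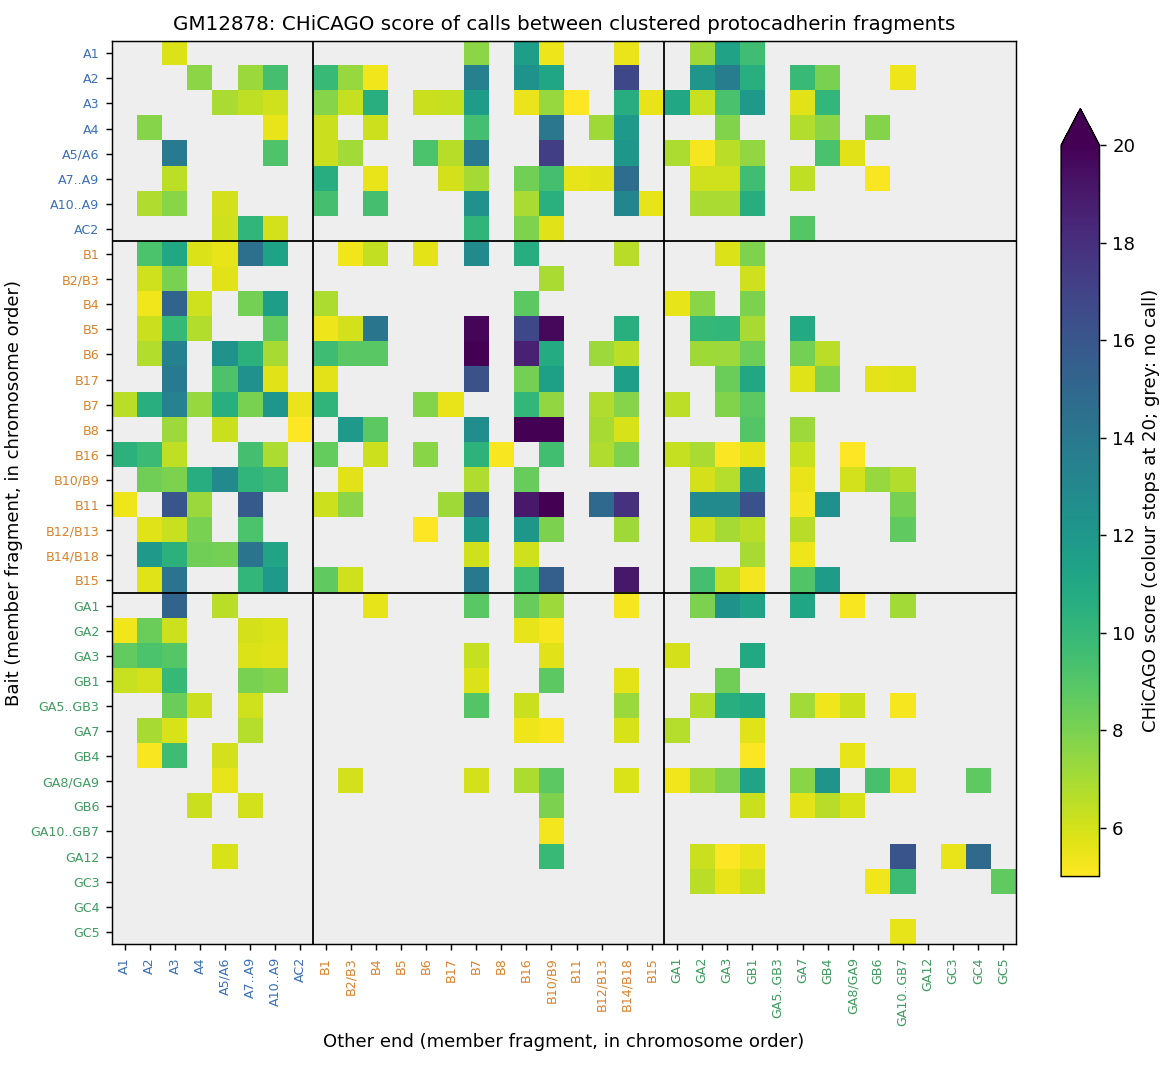
CHiCAGO scores of GM12878 calls between member fragments, with the bait on the vertical axis and the other end on the horizontal axis, both in chromosome order with the prefix PCDH left out; black lines part the clusters and grey squares hold no call. The blocks between alpha and beta hold 54 calls by alpha and 67 by beta baits, and the larger beta block holds 75. The rows and columns of GC3, GC4 and GC5 are empty outside the gamma cluster.

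A pair can be called from either end when both fragments are baits. In GM12878 123 of the 284 called pairs, 43.3%, were called from both ends, against 18.5% of all bait-to-bait pairs. The share was 70.4% between alpha and beta and 68.4% between alpha and gamma, but 15.0% within gamma. In mESCs it was 26.1% (24 of 92), beside 26.2% of all pairs.

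**Figure D2:**
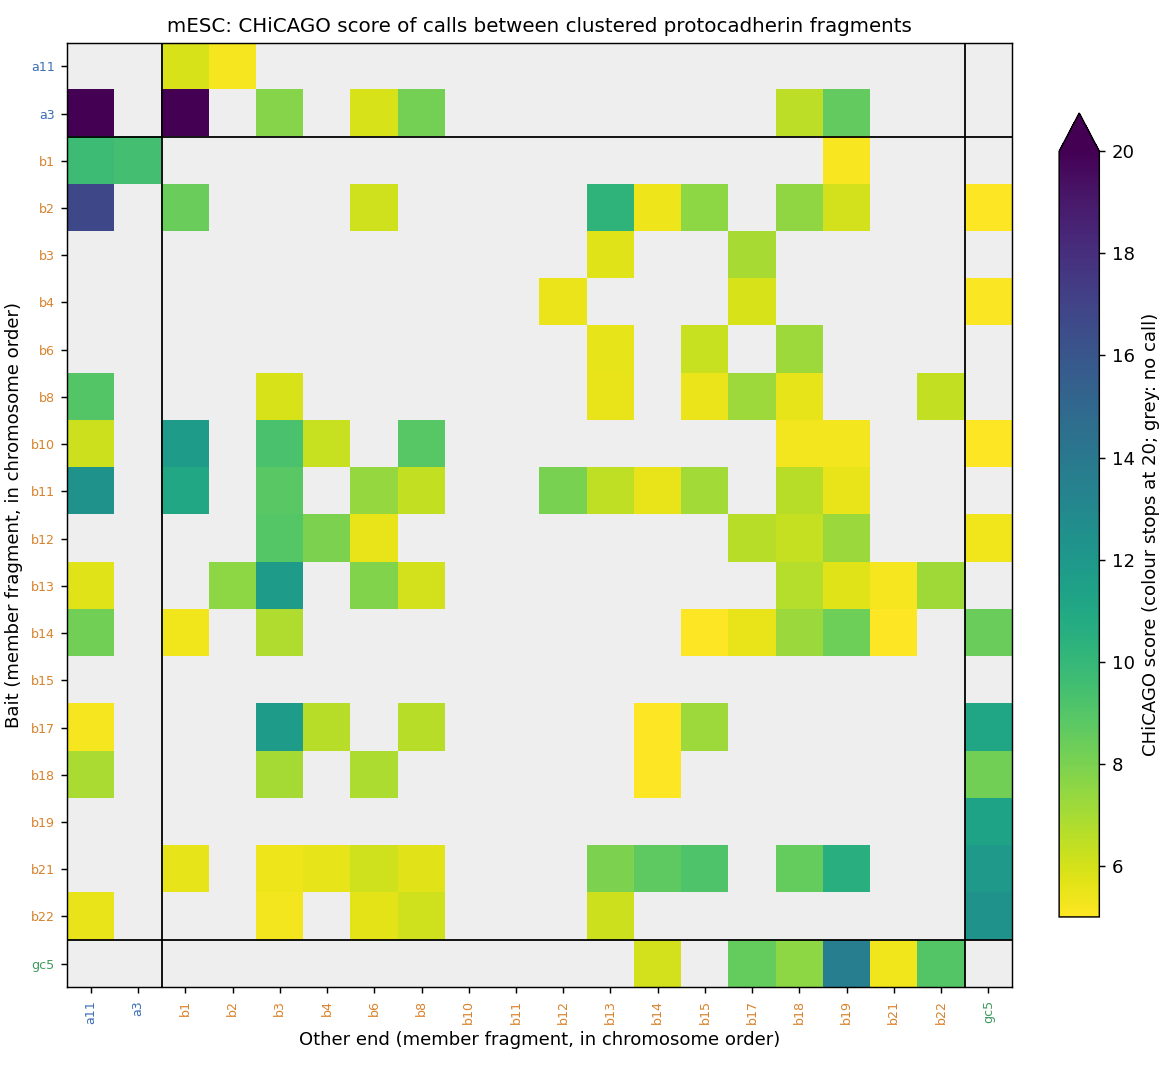
CHiCAGO scores of mESC calls between member fragments, laid out in the same way with the prefix Pcdh left out. Calls are spread over the beta block, where 65 of 133 pairs were called, and a11 and gc5 stand as the columns most often reached from outside their own cluster.

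The share of called member pairs was set beside that of all pairs of listed baits in classes of distance. In GM12878 it was 1.77 to 1.99 times the share of all pairs in the classes up to 300 kb. At 300 to 500 kb it was 4.45 times that share, so the member share fell less only beyond 300 kb. In mESCs this ratio rose with each class, from 0.914 under 50 kb to 16.0 at 500 to 800 kb. In GM12878 67.4% of member pairs under 50 kb apart were called, against 34.3% of all pairs, and at 50 to 100 kb the values were 52.8% and 29.1%. They were 44.6% and 25.3% at 100 to 200 kb and 37.6% and 18.9% at 200 to 300 kb. At 300 to 500 kb 58 of 132 member pairs were called, 43.9% (35.8 to 52.5), against 9.88%. At 500 to 800 kb 34 of 96 were called, 35.4% (26.6 to 45.4), against 3.05%, which is 11.6 times the share of all pairs. In mESCs the pairs under 50 kb did not stand above the background, with 34.1% (21.6 to 49.5) against 37.4%, and at 50 to 100 kb 57.6% were called, against 30.5%. At 100 to 200 kb 61.5% of mESC member pairs were called, against 24.2%, and at 200 to 300 kb 47.4%, against 16%. At 300 to 500 kb 11 of 25 were called, 44% (26.7 to 62.9), against 8.22%. At 500 to 800 kb 7 of 17 were called, 41.2% (21.6 to 64.0), against 2.57%. The pairs compared share fragments and are not independent of each other, and the background takes pairs from all chromosomes, whatever lies between their fragments.

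**Figure D3:**
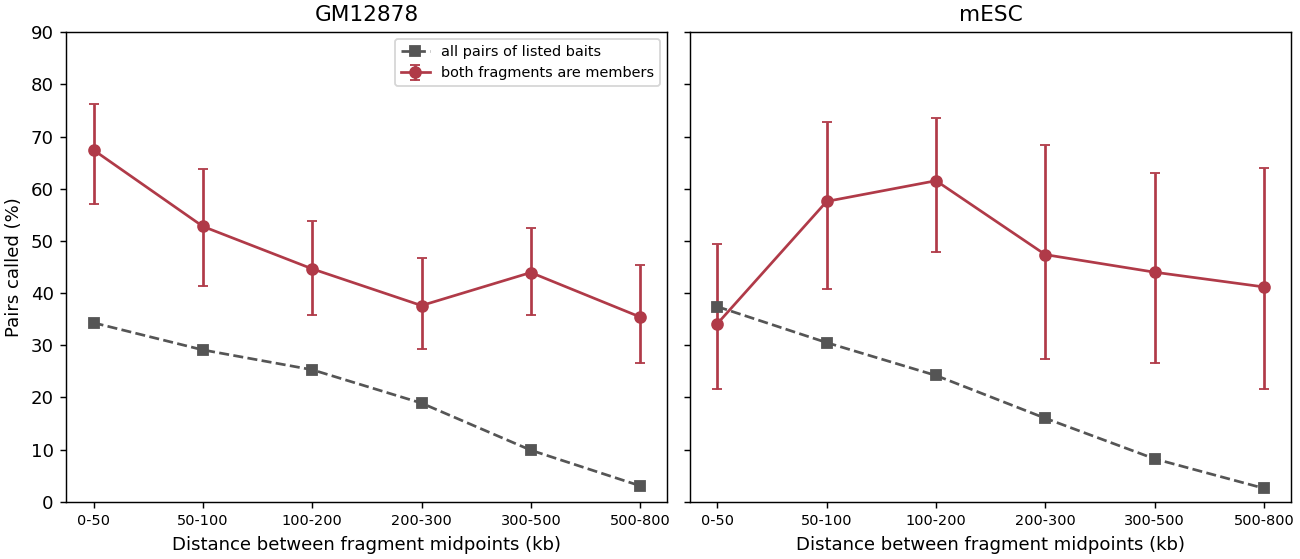
Share of pairs of baited fragments that were called (vertical axis, %) by the distance between their midpoints (horizontal axis, kb), for member pairs (circles, bars are Wilson 95% intervals) and for all pairs of listed baits (squares). At 500 to 800 kb the member shares are 35.4% in GM12878 and 41.2% in mESCs, beside 3.05% and 2.57% for all pairs.

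Near-identical sequence can place a read on the wrong member, so the member fragments of each cell type were aligned to each other. Of the GM12878 pairs 1 shared an alignment of at least 100 bp at 95% identity or more, PCDHB8 with PCDHB12 and PCDHB13, and it was called. No mESC pair did. At 90% identity 7 GM12878 pairs shared an alignment, 1 of them called, and 1 mESC pair did and was called. Among the pairs 100 to 800 kb apart none shared sequence at 95% identity, and the 5 GM12878 pairs that did at 90% were not called. These counts compare only the ends of a pair with each other. Whether a read at either end belongs to another similar fragment, member or not, was not tested.

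Among the alpha genes of GM12878, the fragment of PCDHA3 made the most calls as a bait, 48, followed by the fragment of PCDHA10 and PCDHA9 with 25 and by those of PCDHA5 with PCDHA6 and of PCDHA7 to PCDHA9 with 21 each. PCDHA9 is named on 2 of these fragments, and its annotated start lies on the fragment it shares with PCDHA10. PCDHA3 had 53 distinct partners, of which 14 were beta, 7 gamma, 4 alpha and 26 unbaited fragments. All 24 partners of PCDHA2, the next fragment upstream, lay at higher coordinates, with 11 in the beta and 6 in the gamma cluster. The highest-scoring alpha call joined the fragment of PCDHA5 and PCDHA6 to that of PCDHB10 and PCDHB9 over 365 kb, with a score of 17.24 and 16 reads, a number the authors combined over replicates. It was followed by PCDHA2 with the fragment of PCDHB14 and PCDHB18 (score 16.75) and by PCDHB11 with PCDHA3 (score 15.96). Each of these 3 calls joined the alpha to the beta cluster.

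The beta genes held the fragments with the most calls of the locus. PCDHB7 and PCDHB16 made 52 calls each as baits and the fragment of PCDHB10 and PCDHB9 made 51. With PCDHA3, 4 of the 36 member fragments made at least 45 calls, against 0.65% of all listed baits, and 13 made at least 20, against 5.68%. In mESCs 1 of the 20 member fragments, Pcdhb22, made at least 20 calls, against 5.68%, and none made 45, against 0.746%. The median over all listed baits was 3 calls in each cell type, and over the member fragments it was 17.5 in GM12878 and 12 in mESCs. The fragment of PCDHB10 and PCDHB9 had 62 partners, 8 alpha, 10 beta, 9 gamma, 1 other baited and 34 unbaited, and like PCDHB7 it was in a call with all 8 alpha fragments. The top-scoring call of the locus in GM12878 joined PCDHB8 to PCDHB16, whose midpoints lie 2.6 kb apart, with 82 reads and a score of 33.65. These fragments are almost adjacent, since the first ends at position 140558389 and the other starts at 140558467. Both overlap annotated exons of PCDHB8, so this call is no clear case of a contact between separate promoters. PCDHB11 with the fragment of PCDHB10 and PCDHB9 had 41 reads and a score of 27.00, and PCDHB8 with that same fragment a score of 20.58.

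Some beta and gamma baits reached no unbaited fragment at all. Of 31 member baits with at least 10 calls in GM12878, 7 called baited fragments only, against 6.71% of such baits in the whole list. They were PCDHB5, PCDHB6, PCDHB8, PCDHB11, PCDHB15, the fragment of PCDHGA5, PCDHGA6, PCDHGB2 and PCDHGB3, and PCDHGA12. PCDHB5 made 18 calls with a median score of 9.97 from a median of 7 reads and was never the other end of a call. The calls at either end of PCDHB7 had a median score of 7.84 and a median of 15 reads, and 33 of its 59 partners were unbaited. Across the 36 fragments, which share libraries and neighbours, Pearson r between length and number of calls as a bait was 0.055. In mESCs 1 of 14 such baits, Pcdhb11, called baited fragments only, against 5.77%.

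The gamma fragments made fewer calls, a median of 15 against 18.5 for beta and 20.5 for alpha fragments. PCDHGA3 made 27, the fragment named for PCDHGA2 20, and PCDHGA7 and the fragment of PCDHGA8 and PCDHGA9 19 each. The annotated start of PCDHGA2 lies on the next fragment upstream, which is unbaited. PCDHGB1 stood out as an other end, with 31 calls reaching it beside 16 made as a bait, and 14 of its 37 partners were beta fragments, which is every beta fragment listed. The 3 highest-scoring gamma calls led out of the cluster to a baited fragment named for CTD-2024I7.13 and DIAPH1. DIAPH1 is a formin that acts on actin filaments, and annotated starts of DIAPH1 and DIAPH1-AS1 lie on this fragment. The fragment of PCDHGA10, PCDHGA11 and PCDHGB7 called it with a score of 22.78 and 50 reads over 141 kb and was called by it in return with a score of 19.44. PCDHGB6 called it with a score of 22.42 and 40 reads. The other baited fragment named for DIAPH1, at chr5:140997436-141001348 (hg19), was in calls with 5 gamma fragments, with scores from 5.43 to 8.74.

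The C-type gamma fragments had few calls and none with another cluster. PCDHGC3 made 8 calls as a bait, PCDHGC4 1 and PCDHGC5 1. None of their 63 pairs with alpha or beta fragments, counted without the C-type PCDHAC2, was called, which allows a share of up to 5.75% (Wilson 95%). Of the 231 such pairs of the other 11 gamma fragments 103 were called, 44.6% (38.3 to 51.0). At 500 to 800 kb the counts were 0 of 21 pairs (up to 15.5%) and 34 of 72 (47.2%, 36.1 to 58.6), and at 200 to 300 kb 0 of 16 (up to 19.4%) and 28 of 75 (37.3%, 27.3 to 48.6). At 300 to 500 kb they were 0 of 26 (up to 12.9%) and 3 of 16 (6.59 to 43.0), and these intervals overlapped. Within the gamma cluster 9 of the 33 pairs of C-type with other gamma fragments were called. PCDHAC2, the C-type alpha fragment, made 9 calls and was in 5 of 25 possible pairs with beta and other gamma fragments, 20.0% (8.86 to 39.1), while the other 7 alpha fragments were in 104 of 175, 59.4% (52.0 to 66.4). The distances of these pairs differ, and at 200 to 300 kb PCDHAC2 was in 4 of 8 pairs (21.5 to 78.5%) and the other alpha fragments in 12 of 18 (43.7 to 83.7%), intervals that overlap. At 300 to 500 kb the counts were 1 of 11 (1.62 to 37.7%) and 57 of 84 (57.3 to 76.9%). The C-type fragments were set apart here after their values were seen, and their low number of calls as baits moved with this difference, whose part was not tested.

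**Figure D4:**
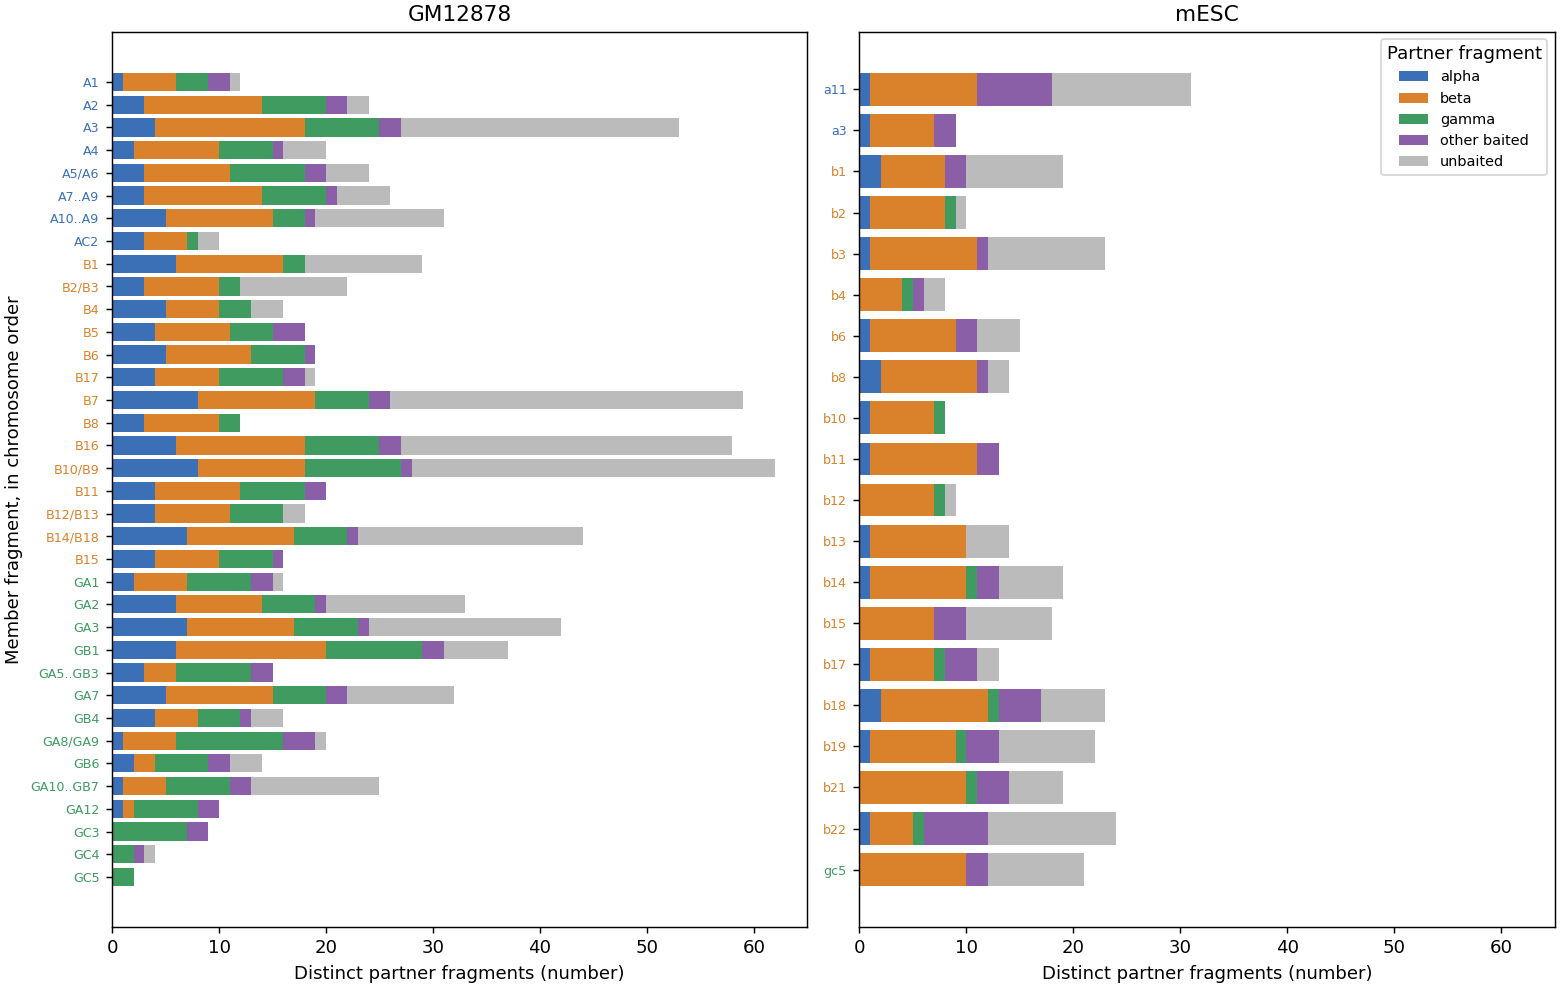
Number of distinct partner fragments of each member fragment (horizontal axis), split by what the partner is; fragments run down the vertical axis in chromosome order. In GM12878 the long grey parts belong to A3, B7, B16, B10/B9, B14/B18, GA2 and GA3, and GC3, GC4 and GC5 have no alpha or beta part.

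In mESCs the most calls as baits were made by Pcdhb22 with 21, Pcdhb21 with 19 and Pcdhb14 with 16. Pcdha11 and Pcdhgc5 made 15 calls each and Pcdha3 made 9. Pcdha11, at the head of the alpha cluster, had 31 partners, 10 of them beta fragments. Pcdha3 called Pcdha11, 14.9 kb away, with a score of 35.70 and 51 reads, the top score among mESC member calls, and called Pcdhb1 over 318 kb with a score of 24.64 and 13 reads. Pcdha11 was also called by the AC020968.1 fragment (score 17.91) and by Pcdhb2 (score 16.73). The beta gene Pcdhb19 called an unbaited fragment in the gamma cluster with a score of 15.37 and 17 reads. Pcdhgc5 called Pcdhb19 with a score of 13.58 and 22 reads, was called by the 3222401L13Rik fragment with a score of 13.09, and was called by Pcdhb22 with a score of 12.28. The single gamma bait was in a call with 10 of the 17 beta fragments.

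Fragments that carry no member symbol were often shared between members. In GM12878 the SLC25A2 fragment was in calls with 16 member fragments, 6 alpha, 6 beta and 4 gamma, and the TAF7 fragment with 15, 5 alpha, 6 beta and 4 gamma. SLC25A2 encodes a mitochondrial carrier and TAF7 a subunit of TFIID, and both genes lie between the beta and gamma clusters. An unbaited fragment at chr5:140618461-140622169 (hg19), which holds the start of the pseudogene PCDHB19P at the end of the beta cluster, was reached by 13 member fragments, 3 alpha, 6 beta and 4 gamma. The DIAPH1 fragment at chr5:140935964-140942566, beyond the gamma cluster, was in calls with 12, of which 9 were gamma and 3 beta and none alpha. Of the 84 unbaited fragments that members reached, 19 were reached by at least 5 member fragments, where 3.9% of all unbaited fragments with a call were reached by as many baits, and in mESCs 5 of 46 were, against 6.38%. Baits stand close together at this locus, and the part of their density in these counts was not tested.

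In mESCs the fragment reached by most members was unbaited and lay within the gamma cluster, at chr18:37903079-37906202 (mm9), where it overlaps an exon of the model Pcdhgc5. It was in calls with 12 beta fragments and with Pcdhgc5, scores from 5.63 to 15.37. The 3222401L13Rik fragment was in calls with 11 member fragments, 9 of them beta. The fragment of a SNORA40 gene copy, which lies within the gamma cluster, was in calls with 9, 8 of them beta. Where the unbaited ends lay differed between the lists. In mESCs 52 of the 104 distinct pairs with an unbaited fragment ended inside the gamma cluster, 50.0%, and 47 of these came from beta baits. In GM12878 23 of 270 did, 8.52%, while 26.7% ended inside the beta cluster, 17.8% between beta and gamma and 15.6% before the alpha cluster. No mESC pair ended before the alpha cluster. The GM12878 list has 14 baited gamma fragments, which are outside the unbaited class, and the mESC list has 1 under a member name, so these shares cannot be compared directly between the lists.

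**Figure D5:**
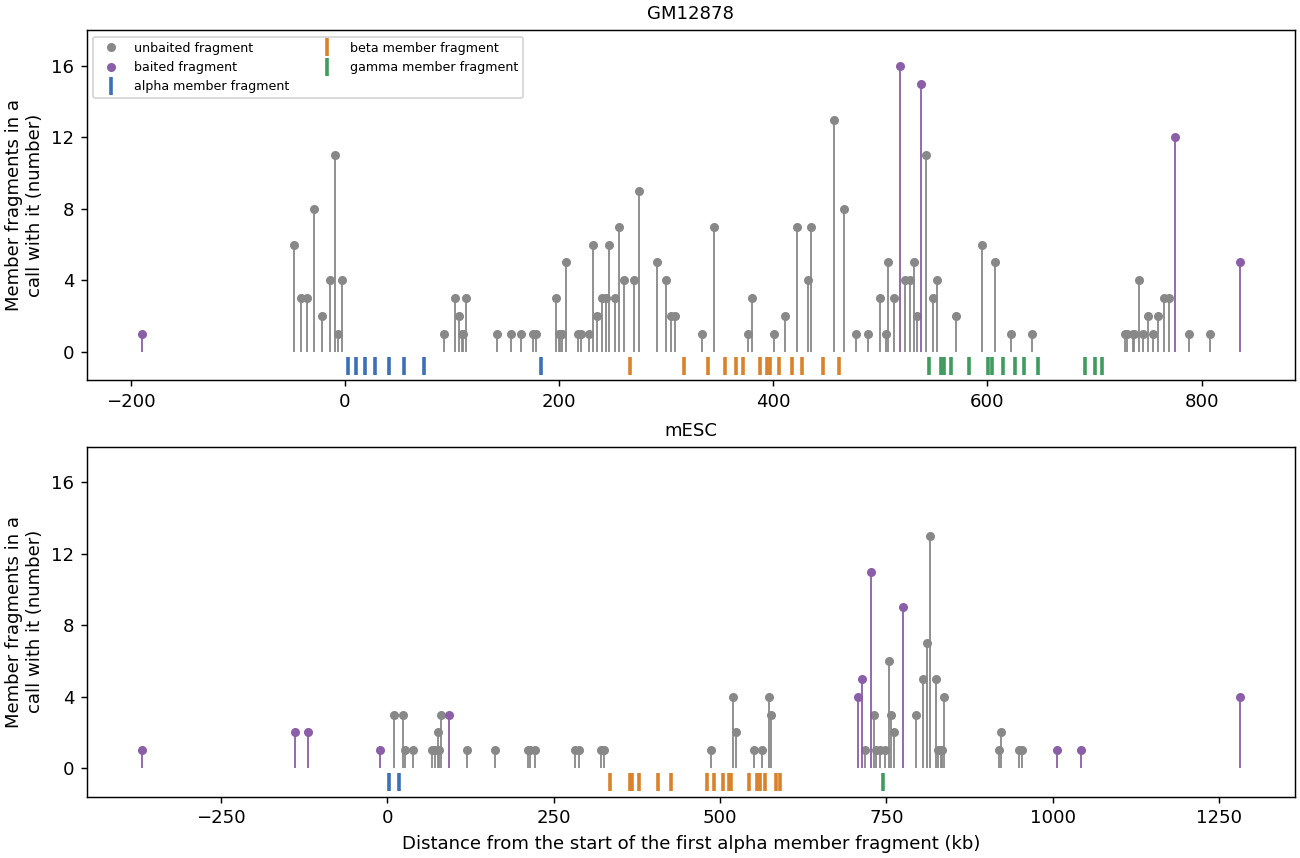
Number of member fragments in a call with each fragment that carries no member symbol (vertical axis), by its distance from the start of the first alpha member fragment (horizontal axis, kb, 1 panel per cell type); coloured ticks under 0 mark member fragments. The highest points are the SLC25A2 and TAF7 fragments in GM12878, with 16 and 15, and an unbaited fragment past the Pcdhgc5 bait in mESCs, with 13.

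Of 25 listed neighbour genes 20 were on baited fragments in GM12878 and 3 of them had a call with a member: SLC25A2, TAF7 and DIAPH1. Members took part in 21 of the 23 calls of the SLC25A2 fragment, 18 of 27 of the TAF7 fragment and 22 of 39 of the DIAPH1 fragments. In mESCs 17 were on baited fragments and 6 had such a call: Zmat2, Slc25a2, Taf7, Diap1 (the mouse list's name for Diaph1), Fchsd1 and Pcdh1, with 4 of the 6 calls of the Slc25a2 fragment and 7 of the 11 of the Taf7 fragment. Pcdh1, a protocadherin outside the clusters, was called by Pcdhb21, Pcdhb11, Pcdhb22 and Pcdhb17 over 691 to 790 kb, with scores from 5.24 to 9.94 and 4 to 7 reads. These were 4 of the 59 calls of the mouse Pcdh1 fragment, and the human PCDH1 fragment had 13 calls, none with a member. Of 12 protocadherins outside the clusters 7 were on baited fragments in each cell type, and Pcdh1 in mESCs was the only one with a member call. Those other than PCDH1 and PCDH12 lie on other chromosomes, where a *cis*-chromosomal call with a member cannot occur, so their count says little.

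The mESC calls were set beside the Hi-C library of the same strain, in which 25-kb bin pairs had been called without capture. Of the 271 member calls 43 lay within a listed bin pair with an FDR under 0.05, 15.9% (12 to 20.7), against 11.6% of all *cis*-chromosomal calls under 1 Mb. The member share was not above that of all calls at an FDR under 0.01, 9.23% against 9.56%, and for calls with a score of at least 10, 24.1% against 28.5%. The overlap lay in the beta and gamma calls, with 40 of 237 beta and 11 of 27 gamma calls, while 0 of 42 alpha calls did, which allows a share of up to 8.38%. A call between beta and gamma counts under both, and all gamma calls involve the single fragment Pcdhgc5. Alpha calls were also longer, with a median of 333 kb against 195 kb for beta and 182 kb for gamma, and distance was not matched. The Hi-C list held 18 such bin pairs over the locus, 9 of them with a member call. The bin with Pcdhb18, Pcdhb19 and Pcdhb21 was joined to the bin that starts at position 37902733, over the most reached unbaited fragment, by 45 read pairs where 7.30 were expected, and 6 member calls lay within this pair. An overlapping bin with the same member fragments was joined to the bin with Pcdhgc5 by 44 read pairs where 8.97 were expected. Within that pair lay 12 member calls. Listed bins overlap each other, so a call can lie within more than 1 bin pair. With 1 Hi-C library there is no replicate of these counts.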

How the data were processed

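Per the labels and Methods, the authors used HiCUP to align the reads (hg19 for GM12878, mm9 for mESCs) and to drop artefacts and duplicates, kept pairs with an end on a bait and ran CHiCAGO on the combined replicates. Bowtie 1.1.0 and, for Hi-C, HOMER 4.7 stand in the submitters' processing notes. The deposited score is CHiCAGO's, a negative natural log of the p-value after weighting by distance and soft thresholding, on which the authors kept values of at least 5. The read number beside it is combined over replicates by the authors with size-factor weights and rounded, and is treated as a score, not a raw count. For Hi-C, the authors deposited the count of read pairs per bin pair, the signal that HOMER expected from coverage and distance, and p-values adjusted by Benjamini-Hochberg. A further 5 columns of the 25-kb list were not used, nor was the 1-Mb list, because every member call spanned under 1 Mb. Depth per replicate is not in these lists, so the number of calls sets the precision.

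Line pairs were read as bait and other end, and a bait-to-bait pair listed from both ends counted as 2 calls. A fragment with a symbol in any call was taken as baited. A captured bait without a listed call does not appear in the lists, so shares of pairs are over baits with a listed call. Distances were taken between midpoints. Shares have Wilson 95% intervals and medians order-statistic intervals. A call lay within a Hi-C bin pair when both midpoints did. All 125 and 78 fragments of the member calls were HindIII fragments of the digested reference. Alignments used BLAST 2.17.0, and scripts ran in Python 3.11.15 with SciPy 1.17.1. The code that counts pairs by distance was tested on simulated fragments.

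The members, the 25 neighbours and the other lists were chosen with earlier results of these data known. Named genes were, per cell type and cluster, the 3 baits with most calls (ties included) and the 3 calls with the highest scores, then per cell type the 3 other fragments in calls with most member fragments and the listed neighbours with a member call. Fragments beyond these ranks, the C-type fragments, the baits without unbaited partners and the promoter strings were chosen after their values were seen. Alternatives were a score of at least 10, at least 10 reads, each pair once, members at the bait end only, no mixed fragments, distances between nearest ends, and other Hi-C thresholds.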

Additional observations from a re-analysis of the deposited data

How the results depend on the processing

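No paired analysis was possible because the replicates of each cell type were pooled in its list, which also means that no replicate could be left out. With a score of at least 10, 134 member calls were left in GM12878 and 29 in mESCs, the share with a member at both ends was 79.9% and 51.7%, and the mESC median distance was 162 kb. With at least 10 reads, the median distance was 150 kb in GM12878 and 145 kb in mESCs, where 130 calls were left and 57.7% had a member at both ends. With each pair counted once, 47.1% of GM12878 calls had a member at both ends. The share of member pairs 100 to 800 kb apart that were called was 40.7% in GM12878 and 52.2% in mESCs, against 11.2% and 9.95% of all pairs. Alternatives for this share were chosen after seeing the data. It was 11.8% and 10.6% at a score of at least 10, against 2.59% and 1.81% of all pairs, and 24.5% and 22.1% with at least 10 reads, against 7.23% and 4.85%. The share of mESC member calls within a Hi-C bin pair was 9.23% at an FDR under 0.01, against 9.56% of all calls. It was 44.3% over every listed bin pair, against 29.9%, and 24.1% for calls with a score of at least 10, against 28.5%, where 7 of 29 calls remain. Under the other alternatives these values moved by less than their intervals or, for numbers of calls, by less than 1.5 times. Some alternatives could hardly move them. Leaving out pairs of fragments that share sequence (chosen after seeing the data) kept 738 of 739 GM12878 calls and all 271 mESC calls. Leaving out mixed fragments also kept all 271 mESC calls.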
